A study of Rattus norvegicus with 9 samples.

Results

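The 4 array rows described here, among them R332, R470 and R056, belong to 87 rows deposited for the left ventricle of the rat heart. They were chosen by their log2 ratio to the untreated control in rats acclimated to heat for 1 month: R332 and a second row, called the other high row here and carrying its array name in the plots, had the 2 highest ratios in that column, and R470 and R056 had the 2 lowest. None of the 87 row names matched an entry of the RefSeq rat gene table used here, so no gene name, sequence or function is given for them, and the labelled tissue was not checked against marker genes.

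The 9 groups were an untreated control, rats acclimated at 34 °C for 2 days, rats acclimated at 34 °C for 1 month, deacclimated rats (1 month at 24 °C after 1 month of acclimation), reacclimated rats (returned to 34 °C for 2 days after that), and heat-stressed rats that were not acclimated, 2 d acclimated, 1 mo acclimated or reacclimated. Heat stress was 41 °C for 2 h with 1 h of recovery at 24 °C. The labels state neither strain nor age nor sex. Each group was 1 sample, deposited as 1 value per row, for which the labels state 3 RNA pools and 6 animals, so no spread between replicates was available, no test was run, and the order of neighbouring levels could not be judged against an error.

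Heat acclimation is known to act on the heart in stages. The first days bring a transient response with raised autonomic drive, and weeks of exposure bring a slower contracting and more efficient heart with larger stores of protective heat shock proteins. The acclimated state is lost after return to cooler air and is known to be regained faster than it was first acquired. Because the RNA came from whole ventricle, less RNA per cell and fewer cells of a type cannot be told apart in any value below.

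Values are log2 ratios to the control, so 1.00 is 2-fold, and the control itself was taken as 0. A second table gave intensities on a linear scale, which are compared here as log2 values less each sample's median over the 59 rows with intensities above 0 in all samples ("scaled intensity"). By scaled intensity, 25 of the 87 rows were at least 2-fold lower in 1 mo acclimated rats and 15 higher. By listed ratio these counts were 2 and 10. For the other comparisons the share by scaled intensity was not counted, so such values past 2-fold are given without a background. Across all rows the median log2 ratio of the 8 treated groups lay between -0.26 and 0.41, and the median intensity of the 9 samples between 1064 and 4962. Intensities below 0 occurred in 4 groups and were taken to lie at background, a reading of the values that no label states, and 11 rows were empty in the heat-stressed group. The control column was away from 0 in 9 rows, none of them among the 4. Over the comparisons below, between 54.9% and 80.5% of the rows with both values had the same sign in both tables.

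In the column that chose them, R332 stood at 2.36 (5.12-fold above the control) and the other high row at 1.56 (2.94-fold). R470 stood at -1.32 (2.49-fold below) and R056 at -1.26 (2.39-fold below). The next rows, just outside the choice, were R058 at 1.43 and 14R at 1.40 on the high side, and R087 at -0.97 and R523 at -0.94 on the low side. R332 therefore lay 0.80 above the second row, whereas the other high row lay 0.13 above the third and R056 lay 0.28 below the third lowest. Rows at least 2-fold higher made up 11.5% of the 87 and rows at least 2-fold lower 2.30%, and the 4 rows are among them by the way they were chosen.

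**Figure D1:**
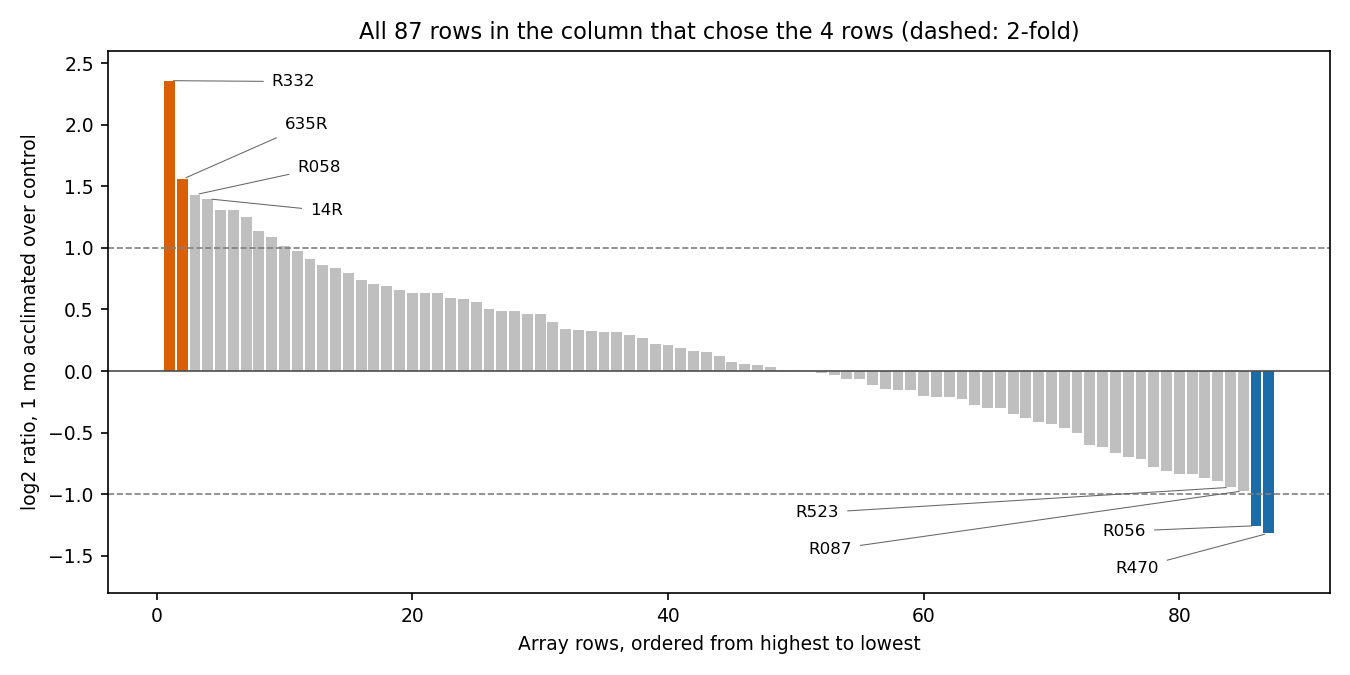
Bars give the listed log2 ratio of 1 mo acclimated over control hearts (y axis) for each of the 87 rows, ordered from highest to lowest (x axis), with the 4 chosen rows coloured and dashed lines at 2-fold. R332 at 2.36 stands 0.80 above the next bar, while the other high row lies 0.13 above the third. R470 lies 0.06 below R056, which lies 0.28 below the third lowest.

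R332 was the row with the highest ratio after 1 month of acclimation, and it lay above the control in all 8 treated groups. Through the unstressed groups its log2 ratio was 0.61 in 2 d acclimated rats, 2.36 in 1 mo acclimated rats, 0.86 in deacclimated rats and 1.90 in reacclimated rats. In heat-stressed hearts it was 0.47 in rats not acclimated, 0.64 in 2 d acclimated rats, 2.44 in 1 mo acclimated rats and 1.49 in reacclimated rats. The 4 values above 2-fold thus belonged to the 1 mo acclimated and the reacclimated rats, stressed and unstressed, and the other 4 treated groups lay below 2-fold.

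The intensity of R332 was among the lowest on the array, and its mean over the samples ranked second from the dimmest. It was 184 in the control, -852 in 2 d acclimated rats, 905 in 1 mo acclimated rats, -44.4 in deacclimated rats and -197.5 in reacclimated rats. With heat stress it was 233 in 2 d acclimated rats, 2026 in 1 mo acclimated rats and 191 in reacclimated rats, and the cell of the heat-stressed, not acclimated group was empty. Both 1 mo acclimated samples were therefore the brightest of the 8 with a value. By scaled intensity R332 was 2.06 above the control in 1 mo acclimated rats and 3.21 above it in heat-stressed 1 mo acclimated rats, which has the direction of the listed ratios. The listed ratio of 1.90 in reacclimated hearts, in contrast, stood beside an intensity below 0, and that of 1.49 in reacclimated, heat-stressed hearts beside a scaled intensity below the control (-0.73).

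The other high row was above the control in 7 of the 8 treated groups by its listed ratio. Its log2 ratio was 1.39 in 2 d acclimated rats, 1.56 in 1 mo acclimated rats, 1.91 in deacclimated rats and 0.63 in reacclimated rats. Under heat stress it was 0.92 in rats not acclimated, 0.45 in 2 d acclimated rats, -0.02 in 1 mo acclimated rats and 1.41 in reacclimated rats. Unlike R332, the other high row was already past 2-fold at 2 d and stood highest after the month at 24 °C.

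Every intensity of the other high row was above 0, and all 8 treated samples were dimmer than the control. The intensity was 4548 in the control, 2517 in 2 d acclimated rats, 2452 in 1 mo acclimated rats, 3113 in deacclimated rats and 899 in reacclimated rats. It was 3041 in heat-stressed rats not acclimated, 199 in heat-stressed 2 d acclimated rats, 964 in heat-stressed 1 mo acclimated rats and 3314 in heat-stressed reacclimated rats. On the scaled log2 scale its difference from the control lay between -3.81 (2 d acclimated, heat-stressed) and -0.54 (heat-stressed, not acclimated), with -1.13 in 1 mo acclimated rats. The -3.81 rests on the intensity of 199, in a sample where 14 rows were below 0. Among the 59 rows with intensities above 0 in all samples, the other high row and 14R were the 2 rows with a listed ratio above the control in at least 7 treated groups and a scaled intensity below it in all 8.

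R470 was the lowest row after 1 month of acclimation, and it lay below the control in all 8 treated groups. Its log2 ratio was -0.86 in 2 d acclimated rats, -1.32 in 1 mo acclimated rats, -0.73 in deacclimated rats and -1.46 in reacclimated rats. In heat-stressed hearts it was -0.42 in rats not acclimated, -0.57 in 2 d acclimated rats, -1.28 in 1 mo acclimated rats and -1.58 in reacclimated rats. The 4 listed values past 2-fold again belonged to the 1 mo acclimated and reacclimated rats, with and without heat stress.

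The intensity of R470 was 5404 in the control, 5439 in 2 d acclimated rats, 2412.5 in 1 mo acclimated rats, 11515 in deacclimated rats and 1453 in reacclimated rats. It was 5092.5 in heat-stressed rats not acclimated, 2703 in heat-stressed 2 d acclimated rats, 4306 in heat-stressed 1 mo acclimated rats and 1949.7 in heat-stressed reacclimated rats. The brightest sample was thus the deacclimated one and the dimmest the reacclimated one. After scaling, R470 was past 2-fold below the control in 1 mo acclimated (-1.40), reacclimated (-2.32) and heat-stressed reacclimated rats (-2.26), but not in heat-stressed 1 mo acclimated rats (-0.58). In 1 mo acclimated rats 25 of the 87 rows were at least 2-fold lower by this measure. R470 was below the control in 7 of 8 treated groups, by as little as -0.04 in heat-stressed rats not acclimated. The exception was deacclimation, where it was 0.42 above the control although its listed ratio was -0.73.

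R056, second lowest, was also below the control in all 8 treated groups. Its log2 ratio was -0.54 in 2 d acclimated rats, -1.26 in 1 mo acclimated rats, -0.78 in deacclimated rats and -1.09 in reacclimated rats. With heat stress it was -0.24 in rats not acclimated, -0.71 in 2 d acclimated rats, -0.88 in 1 mo acclimated rats and -1.74 in reacclimated rats. The 3 values past 2-fold were those of the 1 mo acclimated, reacclimated and reacclimated, heat-stressed groups.

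By intensity R056, like R470, was dimmest in the reacclimated samples, unstressed and heat-stressed. It was 5486 in the control, 11074 in 2 d acclimated rats, 2798 in 1 mo acclimated rats, 5844 in deacclimated rats and 1116.5 in reacclimated rats. Among heat-stressed hearts it was 6197 in rats not acclimated, 4159 in 2 d acclimated rats, 8000.3 in 1 mo acclimated rats and 1108 in reacclimated rats. Scaled intensity had the direction of the listed ratio in 4 of 8 groups: 1 mo acclimation (-1.21), deacclimation (-0.58), reacclimation (-2.72) and reacclimation with heat stress (-3.09). In the other 4 groups it was between 0.13 and 0.31 above the control.

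**Figure D2:**
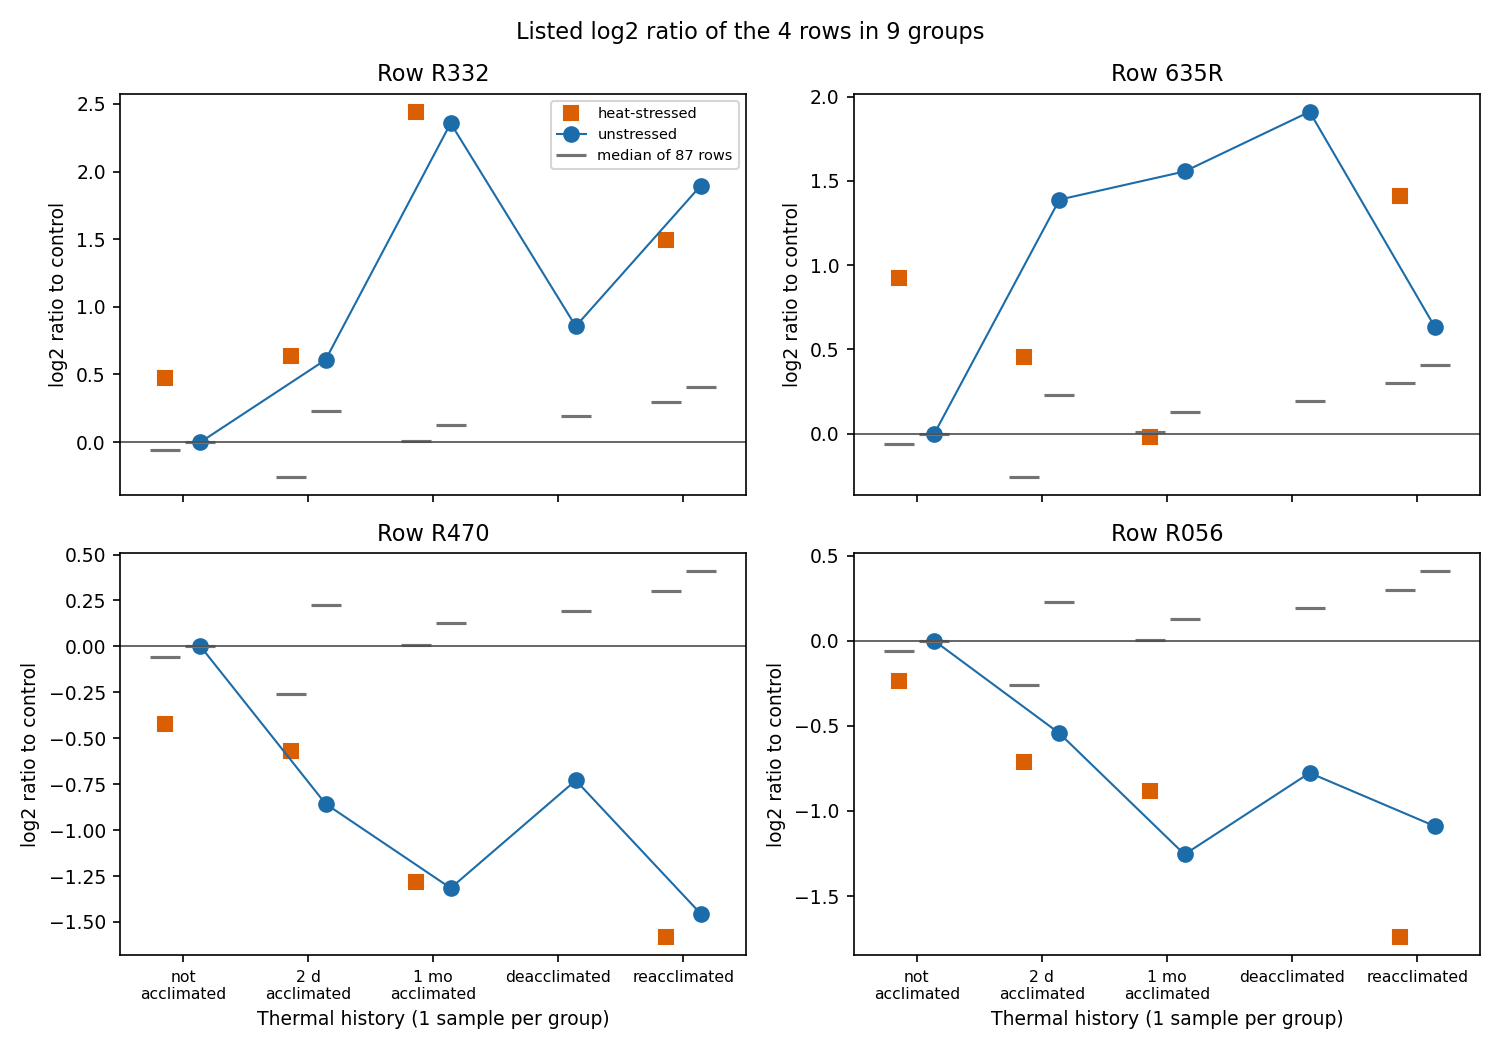
Each panel gives 1 row's listed log2 ratio to the control (y axis) by thermal history (x axis), with squares for heat-stressed and joined dots for unstressed hearts, 1 sample each, and grey dashes for the median of the 87 rows in the same group. R332 is highest in both 1 mo acclimated groups (2.44 heat-stressed, 2.36 unstressed), and R470 and R056 are lowest in heat-stressed reacclimated rats (-1.58 and -1.74).

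**Figure D3:**
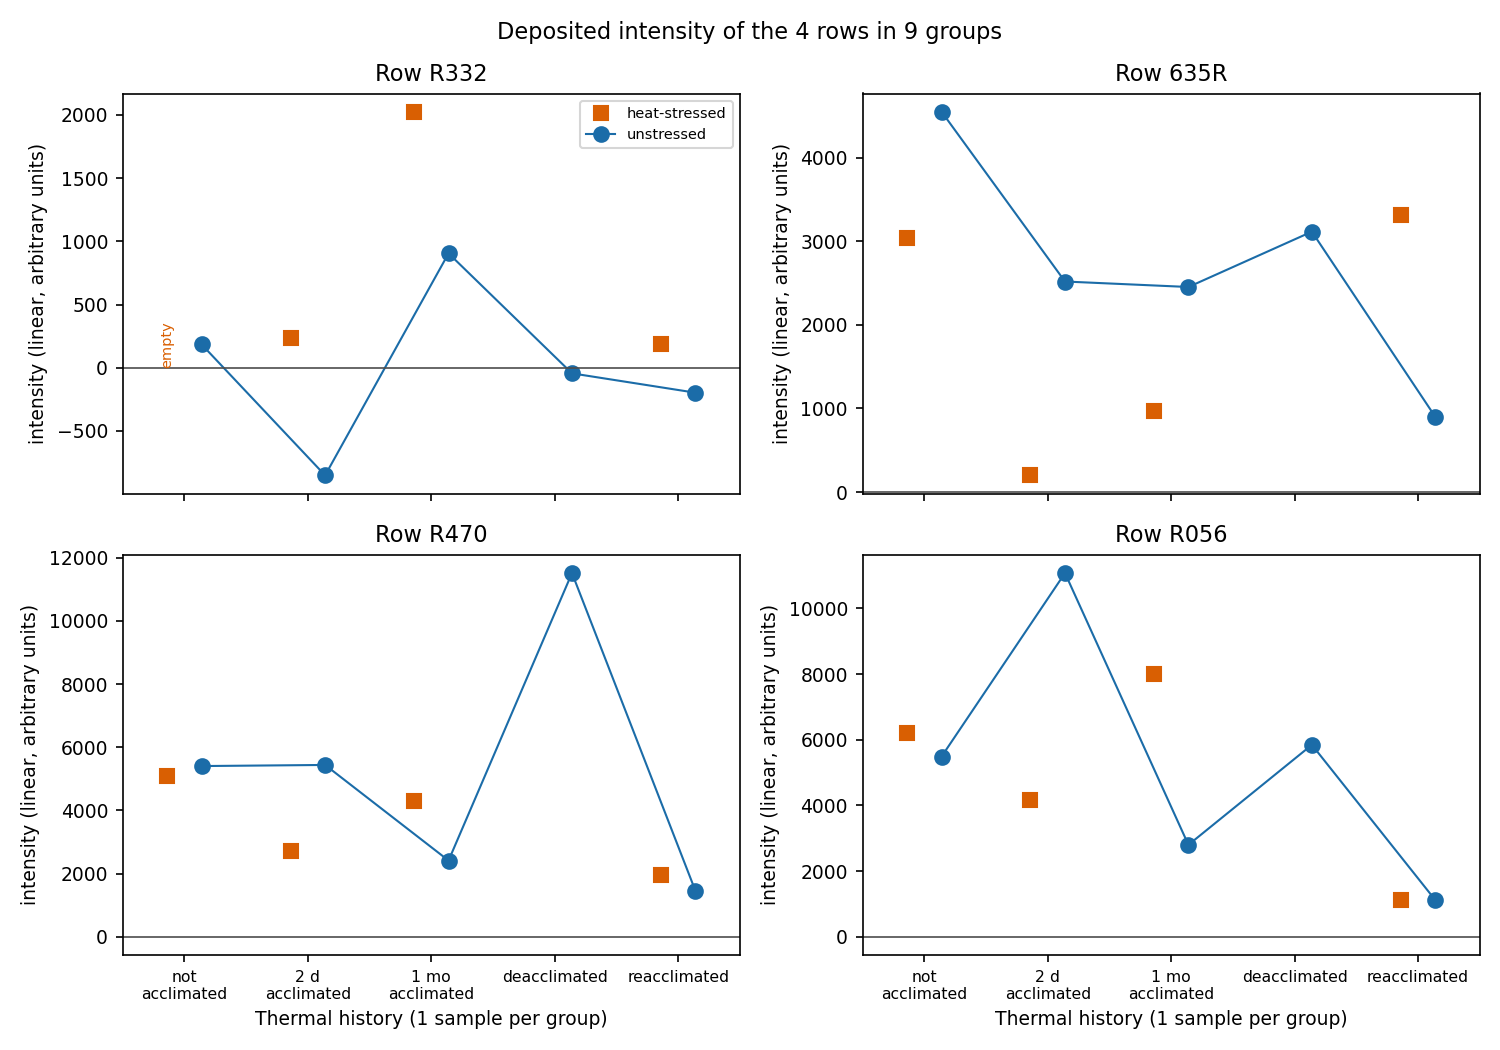
Deposited intensity on a linear scale (y axis) is drawn by thermal history (x axis) for each row, with squares for heat-stressed and joined dots for unstressed hearts, 1 sample each. The control is the brightest sample of the other high row (4548), whereas the ratio table lists the other high row above the control in 7 of 8 groups, and R332 lies below 0 in 3 samples.

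Set against the same control, the listed ratios of the 4 rows were read beside the share of all rows past 2-fold. In 2 d acclimated rats 1 of the 4 was higher by at least 2-fold (the other high row), where 12.6% of all rows were. In deacclimated rats it was again the other high row alone (3.76-fold), where 20.7% of all rows were higher. In reacclimated rats R332 was higher, where 27.6% of rows were, and both R470 (2.74-fold) and R056 (2.13-fold) were lower, where 10.3% of rows were.

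Among the heat-stressed groups set against the control, none of the 4 rows reached 2-fold by listed ratio in rats not acclimated (16.1% of rows did in either direction) or in 2 d acclimated rats (25.3%). By scaled intensity R332 (1.05) and the other high row (-3.81) were past it in heat-stressed 2 d acclimated rats, where the share of all rows by that measure was not counted. Before scaling R332 was 0.34 above the control there (intensity 233 against 184). The intensity of the other high row was 199, in a sample where 14 rows were below 0, down to -487.8. Neither value past 2-fold is therefore read as a change. In heat-stressed 1 mo acclimated rats R332 was higher (8.05% of rows) and R470 lower (14.9%). In reacclimated, heat-stressed hearts the listed ratios of all 4 were past 2-fold in the direction of the column that chose them, R332 and the other high row among 29.9% of rows that were higher, and R470 and R056 among 14.9% that were lower. R056 was 3.34-fold below the control there and R470 2.99-fold, and both were below it by scaled intensity. R332 (-0.73) and the other high row (-1.24) were on the other side of the control by scaled intensity. All these comparisons share the control sample with the one that chose the rows. Being above the control in all 8 treated groups, as R332 was, held for 14 of 87 rows (16.1%), and being below it in all 8, as R470 and R056 were, for 8 rows (9.20%).

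The step between 2 d and 1 mo of acclimation does not use the control, although it uses the column that chose the rows. R332 had a listed log2 difference of 1.75 between 1 month and 2 days, where 5.75% of all rows were at least 2-fold higher. The difference was 0.17 for the other high row, -0.46 for R470 and -0.71 for R056. R332 alone of the 4 passed 2-fold there by listed ratio, and its intensity in 2 d acclimated rats was below 0. By scaled intensity R056 passed it (-1.33), where the share of all rows by that measure was not counted.

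Loss of acclimation was followed by setting the deacclimated against the 1 mo acclimated sample. R332 had a listed log2 difference of -1.50, where 8.05% of rows were at least 2-fold lower, and its intensity in deacclimated rats was below 0 (-44.4). R470 was higher by 0.59 and R056 by 0.48, and by scaled intensity by 1.82 and 0.62. The other high row was higher by 0.35 in the ratio table, with a scaled intensity difference of -0.09. Of the 82 rows with both values, 45 (54.9%) had the same sign in both tables. The 1 mo acclimated values are those that chose the 4 rows, so these differences are not independent of the choice. Set against the 1 mo acclimated sample, the reacclimated one differed by -0.46 in R332, -0.92 in the other high row, -0.14 in R470 and 0.17 in R056. None of these 4 listed differences reached 2-fold, where 28.7% of rows did in either direction. Scaled intensity gave -1.63 for the other high row, -0.92 for R470 and -1.51 for R056, so that R056 had the opposite sign, and the intensity of R332 was below 0 in reacclimated rats.

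The comparison of reacclimated with deacclimated hearts used neither the control nor the 1 mo acclimated sample. R332 had a listed log2 difference of 1.04, where 13.8% of rows were at least 2-fold higher, but both of its intensities were below 0, and centring each group on its median left 0.83. In the same comparison the other high row was 2.42-fold lower (-1.28), where 8.05% of rows were at least 2-fold lower, and it was lower by scaled intensity too (-1.54). R470 was lower by 0.73 and R056 by 0.31, both under 2-fold. Their scaled intensities differed by -2.73 and -2.14. The other high row, R470 and R056 were therefore lower on return to the heat in both tables, and the direction of R332 rests on the ratio table alone. Both tables come from the same samples, and 54 of the 80 rows with both values (67.5%) had the same sign in both.

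A further comparison independent of the choice set the reacclimated against the 2 d acclimated sample, which had the same latest exposure of 2 days at 34 °C. R332 had a listed log2 difference of 1.29, where 18.4% of rows were at least 2-fold higher, with intensities below 0 in both samples. The difference was -0.75 for the other high row, -0.60 for R470 and -0.55 for R056. Scaled intensities gave -1.02, -1.44 and -2.84 for these 3 rows, which is the same direction. Of the 74 rows with both values, 73.0% had the same sign in both tables.

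Heat stress was examined within each thermal history, the heat-stressed sample against its own unstressed one. In 2 d acclimated rats the difference was 0.03 for R332, -0.94 for the other high row, 0.29 for R470 and -0.17 for R056. No row of the 4 reached 2-fold there by listed ratio, where 42.5% of all rows did in either direction. In reacclimated rats the differences were -0.40, 0.78, -0.12 and -0.65 in the same order of rows, again all under 2-fold in the ratio table, where 14.9% of all rows reached it. In 1 mo acclimated rats, a comparison that uses the column that chose the rows, the other high row was 2.98-fold lower under heat stress (-1.57), where 19.5% of rows were at least 2-fold lower, and its intensity was 964 in stressed against 2452 in unstressed hearts. The other 3 differed by 0.08 (R332), 0.03 (R470) and 0.37 (R056) in the ratio table. By scaled intensity the differences were 1.15 (R332, intensity 2026 in stressed against 905 in unstressed hearts) and 0.82 (R470). R056 had an intensity of 8000.3 in stressed against 2798 in unstressed hearts (1.52 on the log2 scale before scaling), and it passed 2-fold scaled and unscaled, as did R332.

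The listed heat stress difference of R470 spanned 0.71 log2 units over the 4 histories and that of R056 1.02, both less than the median span of 1.34 over the 87 rows. R332 spanned 0.87, but in 3 of its 4 histories an intensity was empty or below 0, and no span is read from it. The other high row spanned 2.50, the 14th widest of 87, with higher values under stress in rats not acclimated and in reacclimated rats and lower ones after 2 d and 1 mo acclimation. The lower end of this span subtracts the 1 mo acclimated value for which the row was chosen, and the upper end uses the control. Its width is therefore not independent of the choice. The directions of the other high row within the 3 acclimated histories were the same by scaled intensity, at -2.07 in 2 d acclimated rats, -1.36 in 1 mo acclimated rats and 1.52 in reacclimated rats. Among all rows with both values, 68.2%, 80.5% and 72.8% had the same sign in these histories. The value of -2.07 rests on an intensity of 199 in heat-stressed 2 d acclimated rats, a sample where 14 rows were below 0. In rats not acclimated, where the control is the unstressed sample, scaled intensity gave the opposite sign to the listed difference (-0.54 against 0.92).

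**Figure D4:**
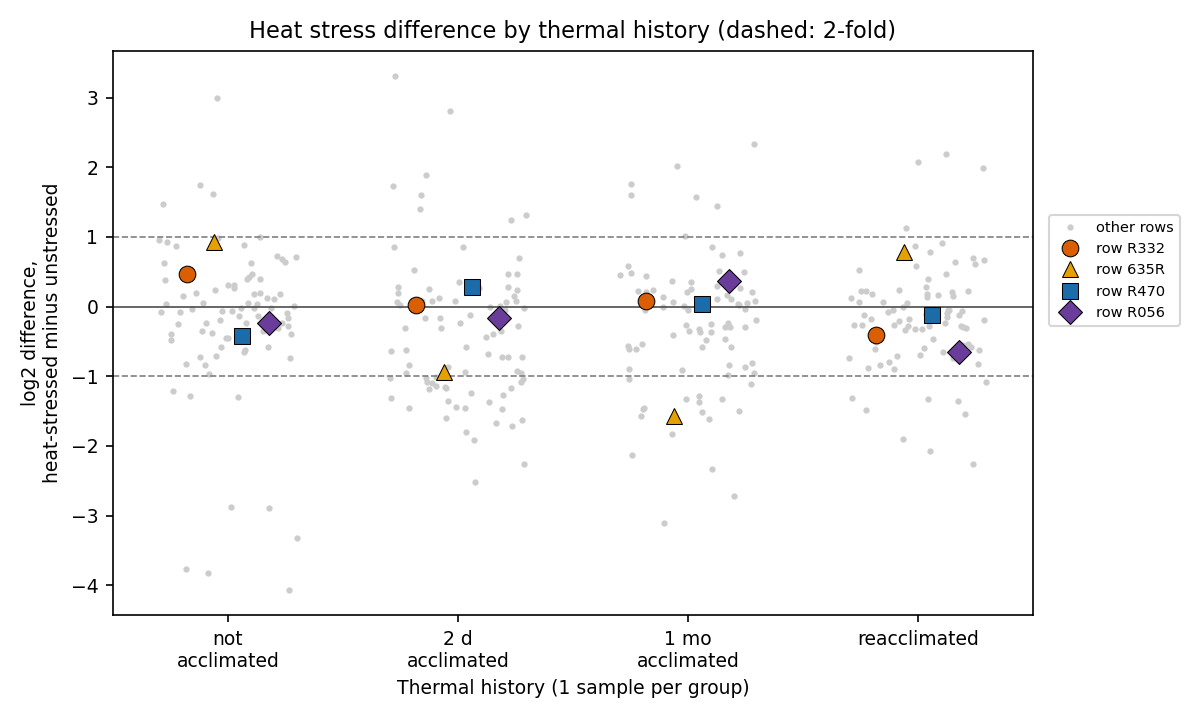
The listed log2 difference between heat-stressed and unstressed hearts (y axis) is shown for 4 thermal histories (x axis), with large symbols for the 4 rows, small grey dots for the other rows and dashed lines at 2-fold. R332 and R470 lie between -0.42 and 0.47 throughout, and the other high row lies above 0 at both ends and reaches -1.57 in 1 mo acclimated rats.

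Both tables were also compared over the 8 treated groups alone, where the control cancels. Pearson's r between the listed ratios and the scaled intensities of a row was 0.853 for R470, 0.825 for R056 and 0.663 for the other high row (n = 8 groups, values sharing the same arrays), and the 59 rows with all intensities above 0 had a median of 0.622. For the other high row, 21 of the 28 pairs of treated groups stood in the same order in both tables, which was also the median of the 59 rows. The tables also differed in the level relative to the control: scaled intensity minus listed ratio averaged -2.90 for the other high row, the second lowest of 59, against 0.11 for R470 and 0.07 for R056. In each of the 8 groups this gap of the other high row was negative, between -4.26 and -1.46. It was thus not a constant shift, and the tables differed among the treated groups too. R332 had no such value, because 4 of its 9 intensities were empty or below 0.

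**Figure D5:**
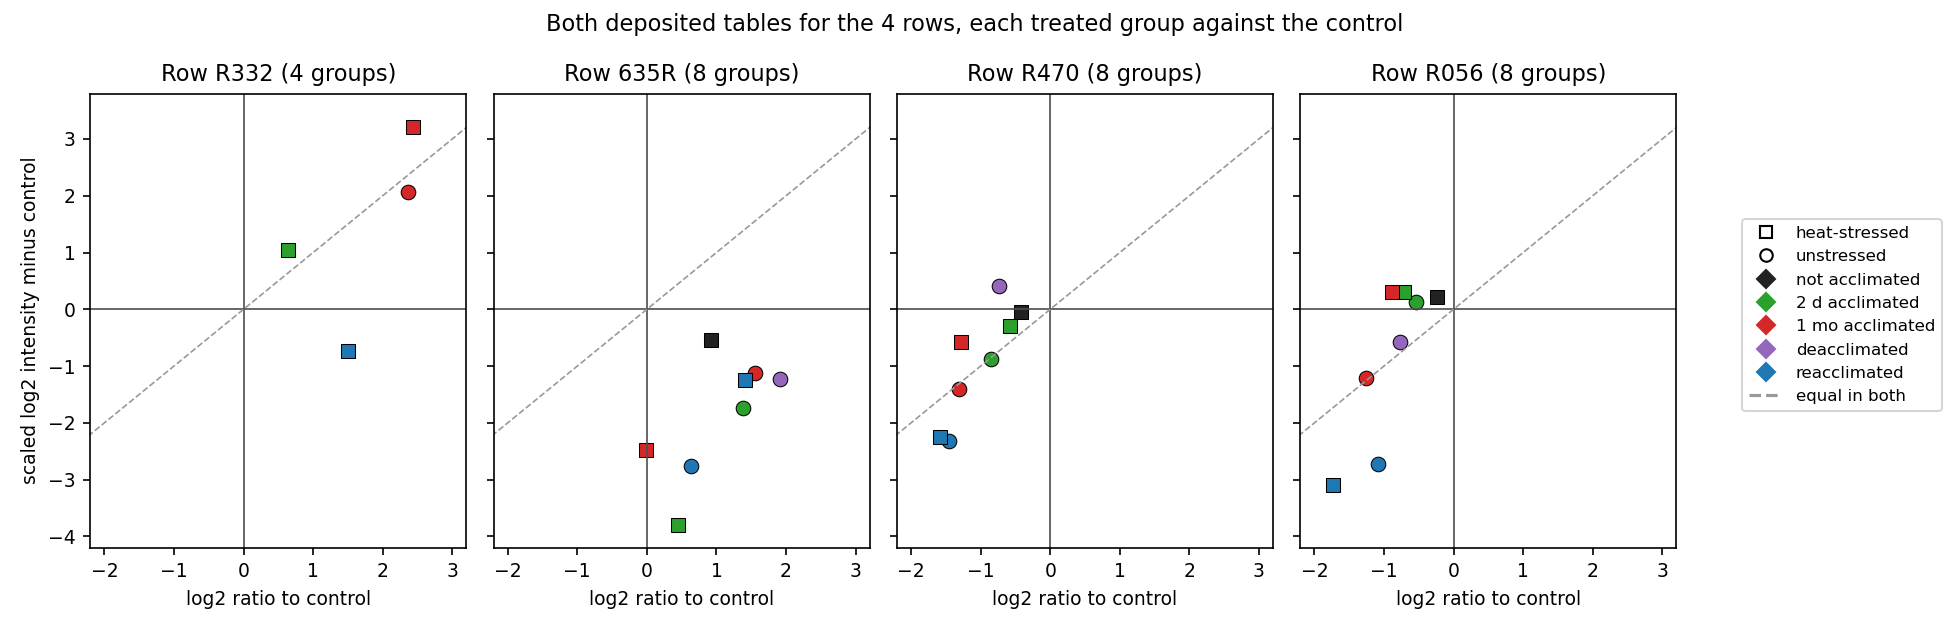
For each row, the listed log2 ratio (x axis) is set against the scaled log2 intensity minus that of the control (y axis), 1 point per treated group, with squares for heat-stressed and dots for unstressed hearts and a dashed line where both are equal. All 8 points of the other high row lie below 0 on the y axis, while the points of R470 and R056 lie around the line.

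Among themselves, the 2 low rows had nearly the same profile. R470 and R056 had r = 0.874 over the 8 treated groups (Spearman's rho 0.905), 0.864 without the 1 mo acclimated group, and 0.851 over all 9 groups by scaled log2 intensity. Their listed ratios differed by between 0.05 and 0.40 in the 8 groups. By listed ratio R332 ran opposite to R470 (r = -0.81) and to R056 (r = -0.61). These rows were chosen from opposite ends of the 1 mo acclimated column, and without that group r was -0.82 and -0.56. Of the R332 intensities 3 were below 0 and 1 was empty, so its r values rest on the ratio table alone. For the other high row r was 0.03 with R470, -0.19 with R056 and -0.26 with R332, the last being -0.53 without the 1 mo acclimated group. Over all 3741 pairs of the 87 rows the median r was 0.07 and the 5th and 95th percentiles were -0.69 and 0.76, and all rows share the same 8 samples, so these values are descriptions.

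The rows most like each of the 4 were taken by Pearson's r over the 8 treated groups, which does not depend on the control value. R332 was most like R472 (r = 0.867), A057 (0.865) and R590 (0.709), of which R590 was listed at -3.82 in heat-stressed rats not acclimated. The r of R590 lay below the 95th percentile of all pairs (0.76). In 1 mo acclimated rats these rows were listed at 0.97, 0.34 and -0.11, all under 2-fold, so the likeness is one of profile and not of level. Closest to the other high row were R105 (0.867), R437 (0.818) and R058 (0.797), and R058 was also the row just outside the choice on the high side. In 1 mo acclimated rats R105 was listed at 0.59 and R437 at -0.03. R105 had a control value listed away from 0 (-6.64). Both low rows had 849R, R011 and each other as their most alike rows. R470 was closest to 849R (0.930), R056 (0.874) and R011 (0.778), and R056 to 849R (0.932), R470 (0.874) and R011 (0.793). 849R itself was listed at -0.60 in 1 mo acclimated rats and as high as 1.00 in another treated group, so it did not lie below the control throughout. The lowest intensity was below 0 for A057 (-113), R590 (-161), R105 (-165.8), 849R (-645.3) and R011 (-82.1). Without the 1 mo acclimated group the first row stayed first for each of the 4, at 0.892 for R472 with R332, 0.902 for R105 with the other high row, 0.934 for 849R with R470 and 0.941 for 849R with R056. R590 then had rank 6 among the rows most like R332.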

How the data were processed

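The other high row has the array name 635R. RNA of left ventricle was prepared with Tri-Reagent, labelled with 32P and run on a Clontech array (labels' protocols). Per the labels, the deposited ratio table gives log2 of treated over control, formed from geometric means and normalized by the authors, with 3 pools behind each group. The second deposited table gives intensity on a linear scale. The sources used here give no scanner, background correction or way of normalizing, and no reason for the choice of 87 rows. The number of arrays limits the precision.

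Differences were taken between log2 ratios, with the control taken as 0 because it is the denominator. Rows at least 2-fold apart were counted. Intensities above 0 were put on the log2 scale, less the median of the 59 rows that stayed above 0 throughout. The members and lists were chosen with earlier results of these data known. Named rows were the 4 chosen rows, 2 rows outside the choice on each side, and the 3 rows most like each. The counting and likeness steps were tested on 100 simulated tables. The tools were pandas 2.3.3, numpy 2.4.6 and matplotlib 3.10.9 under Python 3.11.15.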

Additional observations from a re-analysis of the deposited data

Results flagged for a closer look

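The other high row moved in opposite directions under heat stress in different thermal histories. Its log2 difference between heat-stressed and unstressed hearts was 0.92 without acclimation and -1.57 after 1 mo acclimation, each at least 1.5-fold. The second value subtracts the 1 mo acclimated value for which the row was chosen as high, and the first uses the control. Neither is independent of the choice. With 1 sample per group the difference between these values was not tested. By scaled intensity the value without acclimation was -0.54, the same sign as after 1 mo acclimation.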

How the results depend on the processing

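With 1 sample per group and no replicates, these settings show what the choice of table and scale does, not the error of a value. Of the 87 rows, 12 were at least 2-fold from the control after 1 mo acclimation, 10 higher and 2 lower. With the control column subtracted as listed there were 21 (19 higher), by scaled intensity 40 (25 lower), and by intensity without scaling 38 (17 higher and 21 lower). Centring each group on its median gave 5 lower, took R332 in reacclimated over deacclimated hearts under 2-fold (0.83) and brought 5 differences past it: R470 in 2 d acclimated rats (-1.08), the other high row in reacclimated over 1 mo acclimated (-1.20) and in heat-stressed 1 mo acclimated over heat-stressed rats (-1.01), and R332 (-1.24) and R056 (-1.15) in reacclimated over 1 mo acclimated stressed hearts. It turned 2 differences under 2-fold, both of R056: to 0.32 for heat stress in 2 d acclimated rats and to -0.11 in reacclimated over 1 mo acclimated rats. At 1.5-fold there were 39 (24 higher and 15 lower), and at 3-fold 1, a higher row, with 0 lower. Of the 66 rows left once the dimmest 25%, R332 among them, were set aside, 10 were past 2-fold. R332, R470 and R056 kept their direction after 1 mo acclimation in all 4 alternatives, and R056 was under 2-fold by intensity without scaling (-0.97). Their ranks held less well. By scaled intensity after 1 mo acclimation, R470 had rank 68 and R056 rank 66 from the highest of 87, against 87 and 86 by listed ratio. The other high row had rank 63 against 2, and R332 rank 3 against 1. With the control column subtracted as listed, R332 had rank 10 and the other high row rank 11, while R470 and R056 stayed at 87 and 86.

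The sign of the other high row relative to the control turned with the intensity table, scaled and unscaled in turn: -1.74 and -0.85 in 2 d acclimated rats, -1.13 and -0.89 in 1 mo acclimated rats, -1.22 and -0.55 in deacclimated rats, and -1.24 and -0.46 in heat-stressed reacclimated rats. R332 after reacclimation with heat stress turned to -0.73 by scaled intensity and was 0.05 unscaled, and R470 in heat-stressed 1 mo acclimated rats fell under 2-fold (-0.58 and -0.33). Of 60 differences with intensities above 0, 18 passed 2-fold by scaled intensity, in the same direction, that did not by ratio, and 13 listed under 2-fold turned sign. The cause was not tested. Of the 3 rows most like each member, at least 2 stayed with Spearman's rho, after centring and in the 7 groups other than the 1 mo acclimated one, while 1 stayed for the other high row, R470 and R056 by root mean square distance. By scaled intensity 1 stayed for R470 and for R056, and 0 for the other high row. Leaving out the reacclimated group, a choice made after seeing the data, left 1 for the other high row. No paired analysis was possible because each group holds 1 sample.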

Other observations

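Heat-stressed hearts were also set against each other, which uses neither the control nor the unstressed 1 mo acclimated sample. In 1 mo acclimated against not acclimated stressed hearts, R332 had a listed log2 difference of 1.97, the 8th highest of 87 rows, where 13.8% of rows were at least 2-fold higher, and its intensity in stressed rats not acclimated was empty. The listed differences of the others were -0.94 (the other high row), -0.86 (R470) and -0.65 (R056), all under 2-fold. Scaled intensity gave -1.95 and -0.53 for the other high row and R470 but 0.08 for R056, whose intensity was 8000.3 against 6197. In reacclimated against 1 mo acclimated stressed hearts, the other high row was 2.70-fold higher (1.43), where 18.4% of rows were at least 2-fold higher, with an intensity of 3314 against 964. R332 was lower there (-0.95, intensity 191 against 2026), as were R470 (-0.30) and R056 (-0.86, intensity 1108 against 8000.3). By scaled intensity these 3 were past 2-fold, at -3.95, -1.68 and -3.39, where the share of all rows by that measure was not counted.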
